A study of Mus musculus with 8 samples.

Results

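The 8 genes of butyrate uptake and ketone metabolism were followed in mouse colon: Slc16a1, Slc5a8, Bsg, Acss2, Acads, Bdh1, Acat1 and Oxct1. They were taken as a list by gene symbol, current or older, chosen with earlier results of these data known. All 8 were measured, among 19440 named genes on the array, by 16 probes of 41174.

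Colon RNA of 4 Mdr1a-/- mice, chosen for a high histological injury score of the colon, was set against RNA of 4 low-score FVB/N mice, each on its own Agilent 2-colour array. The Mdr1a-/- mice lack the drug efflux transporter gene Abcb1a in every cell, carry it on the FVB/N background and develop colon inflammation, which makes them a model of inflammatory bowel disease. Both groups were male, bought from one supplier, fed the AIN-76A powdered control diet without curcumin, and 21 to 24 weeks old, with the age of each mouse not given. All were fasted overnight and given food back for 2 hours before sampling. Each sample, labelled with Cy3, was hybridised against a common Cy5 reference of Swiss mouse small intestine, colon, kidney, liver and fetus RNA. Genotype and score cannot be told apart in this design. Levels below are log2(sample / reference) and differences are log2 fold changes, arrays labelled Mdr1a-/- minus arrays labelled FVB/N. A probe was called at a limma adjusted p under 0.05 over all probes.

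Butyrate is made by gut bacteria from dietary fibre and is the main fuel of the cells that line the colon. It enters them through Slc16a1 (MCT1), which moves monocarboxylates together with protons and needs the chaperone Bsg (basigin) to reach the membrane, and through Slc5a8 (SMCT1), which couples uptake to sodium. Inside, an acyl-CoA synthetase activates it, and beta-oxidation in the mitochondria, where Acads takes the first step on butyryl-CoA, turns it into acetyl-CoA. Ketone bodies join this route: Bdh1 interconverts 3-hydroxybutyrate and acetoacetate, Oxct1 attaches coenzyme A to acetoacetate, and the thiolase Acat1 splits the product. Acss2 is the exception in the list, since it activates acetate, another bacterial product, in the cytosol and nucleus.

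The Abcb1a probe did not separate the groups, which puts the labels in doubt. It stood at -0.88 ± 0.12 (SD, n = 4) on the arrays labelled Mdr1a-/- and -0.48 ± 0.35 (SD, n = 4) on those labelled FVB/N, a difference of -0.40 ± 0.19 (SE, limma adjusted p = 0.362), against -1.62 in the authors' deposited table (adjusted p = 9.75e-05). The probe was dim, with a net sample signal of 590 to 666 on the arrays labelled Mdr1a-/-, where 3 of 4 were above background. On those labelled FVB/N it was 675 to 1196, above background on all 4. A ratio this near background is poorly measured, so the probe alone cannot settle the labels. The sources used here do not place this probe relative to the disruption. The slide numbers of 3 of 4 files labelled Mdr1a-/- are named in the protocol text, against 0 of 4 files labelled FVB/N. Both groups are therefore named by their labels throughout, and each direction rests on them. Per array, 67% to 86.3% of probes were above background. Log2 ratios correlated across probes at 0.678 to 0.802 within groups and 0.565 to 0.73 between them.

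Of the 8 genes, Slc16a1 and Acss2 fell on the arrays labelled Mdr1a-/-, and no other member passed the test. Their promoters are shown because these are the members called, both in the same direction. The sequences are RefSeq's for the GRCm38.p6 mouse assembly, plus strand, 250 bases up to the annotated start of each gene, and capitals mark the motifs found.
Slc16a1, chr3:104638414-104638663: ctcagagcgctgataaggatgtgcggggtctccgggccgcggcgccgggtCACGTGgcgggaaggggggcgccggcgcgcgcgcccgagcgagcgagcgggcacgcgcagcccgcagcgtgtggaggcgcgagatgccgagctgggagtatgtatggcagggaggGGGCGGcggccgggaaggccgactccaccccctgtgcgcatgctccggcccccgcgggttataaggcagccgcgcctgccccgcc
Acss2, chr2:155517793-155518042: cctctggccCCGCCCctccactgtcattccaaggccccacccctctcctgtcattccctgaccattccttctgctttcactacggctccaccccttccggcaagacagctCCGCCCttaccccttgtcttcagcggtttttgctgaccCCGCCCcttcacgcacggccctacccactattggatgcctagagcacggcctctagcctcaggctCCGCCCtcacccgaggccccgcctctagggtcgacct
Searches covered both strands of the 300 bases around the start, for 5 motifs. Positions count from the annotated start. In Slc16a1 the capitals are an E-box (CACGTG) at -200 and a GC box (GGGCGG) at -85. In Acss2 they are 4 GC boxes on the minus strand, at -241, -140, -102 and -37, and a further one lies at 7 bases past the start. Acss2 also holds a CCAAT box on the minus strand at -73, printed in lower case. Among all 32851 promoter windows 7.15% hold the E-box, 35.7% the GC box and 37.4% the CCAAT box. Neither window holds the sterol regulatory element TCACNCCAC (1.24% of windows) or the nuclear receptor motif AGGTCA (16.3%). GC content was 76.4% over the printed bases of Slc16a1 and 64.0% over those of Acss2. A promoter entry was found for 6 of the 8 genes. These matches describe letters only.

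**Figure D1:**
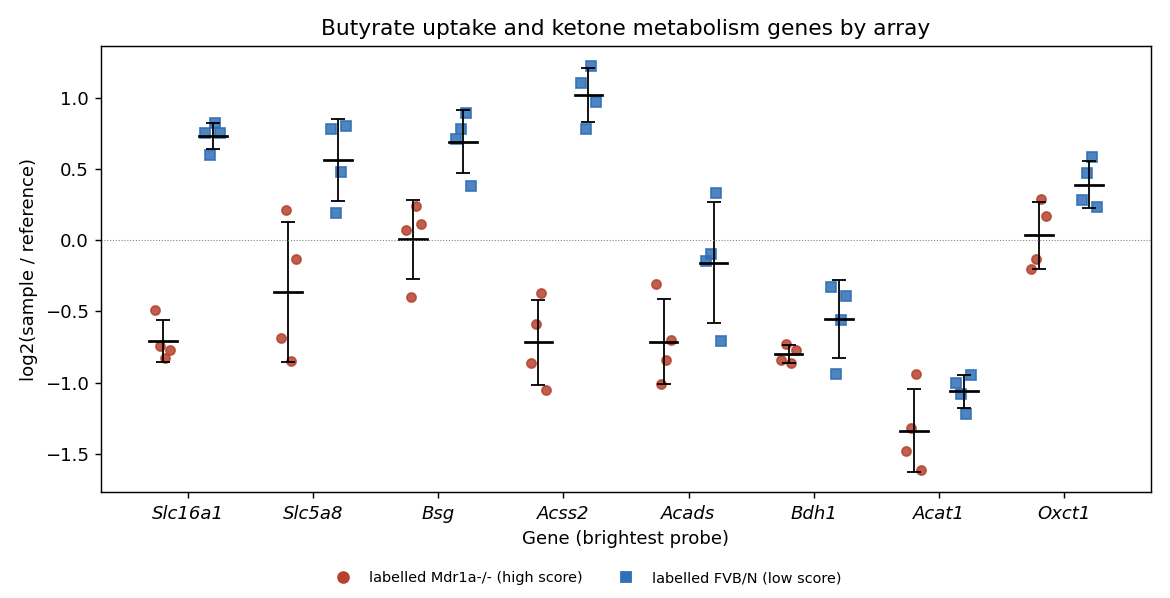
Log2(sample / reference) of the brightest probe of each of the 8 genes, 1 point per array, with circles for the arrays labelled Mdr1a-/- on the left and squares for those labelled FVB/N on the right of each gene. Lines and bars are the mean and SD of 4 arrays. The groups are fully apart for Slc16a1, Bsg and Acss2, and they overlap for the other 5 genes.

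Over all probes of the 8 genes, 4 of 16 were lower on the arrays labelled Mdr1a-/-, 0 were higher and 12 did not pass (limma). Of all 41174 probes 1.45% were called lower and 1.53% higher. A scan day block left 3 of the 16 lower and 0 higher, beside 0.279% and 0.323% of all probes. At an unadjusted p under 0.05 the brightest probes of 5 genes were lower (Slc16a1, Acss2, Bsg, Slc5a8 and Acads) and of 0 higher, beside 8.79% lower and 10.1% higher among the brightest probes of all named genes at that threshold. By brightest probe the median log2 fold change of the 8 genes was -0.62, against 0.03 over the brightest probes of all named genes, of which 2.17% were called lower. The 2 groups of arrays did not overlap for 6 of the 16 probes, all lower, as for 4.94% of all probes. Probes of 1 gene are not independent of each other. Because the 8 genes were chosen with earlier results of these data known, the shares beside their counts are a description and not a test. All 16 probes but 1 were above background on all 8 arrays.

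The transporter Slc16a1 was 2.70-fold lower. Its brightest probe (A_51_P397367) read -0.49, -0.74, -0.83 and -0.77 on the arrays labelled Mdr1a-/- replicates 1 to 4. On those labelled FVB/N it read 0.75, 0.60, 0.82 and 0.75. The lowest FVB/N-labelled array thus lay above the highest Mdr1a-/- one by more than the range within either group. The net Cy3 signal, the brightness of the sample's own channel, was 11210, 7683, 7932 and 13512 on the arrays labelled Mdr1a-/- and 42911, 35914, 42657 and 40704 on those labelled FVB/N. Its log2 fold change came to -1.44 ± 0.13 (SE, limma adjusted p = 0.00167; 95% interval -1.74 to -1.13).

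The second Slc16a1 probe gave nearly the same difference and the third did not. The second (A_51_P397363) read -0.40, -0.61, -0.75 and -0.39 on the arrays labelled Mdr1a-/-, against 1.06, 0.85, 1.05 and 0.89 on those labelled FVB/N. Its log2 fold change came to -1.50 ± 0.14 (SE, limma adjusted p = 0.00167). The third (A_52_P245119), far dimmer at a net Cy3 of 1658 to 2159 on the arrays labelled Mdr1a-/- and 2010 to 3975 on those labelled FVB/N, read -0.10, 0.05, -0.01 and 0.10 against 0.24, 0.58, 0.62 and 0.09. There the groups overlapped, and the log2 fold change came to -0.37 ± 0.16 (SE, limma adjusted p = 0.308; 95% interval -0.73 to -0.02). The authors' deposited table gives -1.11, -1.11 and -0.11 for the same probes (adjusted p = 7.59e-06, 2.1e-05 and 0.491). The sources used here do not say which stretch of the transcript each probe reads.

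Arrays were scanned on 3 days, and day 1 held only Mdr1a-/- replicate 4. With scan day as a block the brightest Slc16a1 probe stood at -1.44 ± 0.16 (SE, limma adjusted p = 0.0173). Within day 2 (2 arrays against 2) it was -1.40 and within day 3 (1 against 2) -1.50. The second probe gave -1.59 with the block (limma adjusted p = 0.0146), -1.57 within day 2 and -1.62 within day 3. Day 2 alone called none of the 41174 probes with limma, a fit that was added once the data had been seen. Slc16a1 stayed called whichever of the 8 arrays was left out, at a limma adjusted p of at most 0.00995.

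Bsg, the chaperone of Slc16a1, lay lower on all 4 arrays labelled Mdr1a-/- but did not pass the test. Its single probe read 0.07, -0.40, 0.24 and 0.11 there, against 0.71, 0.78, 0.89 and 0.38 on the arrays labelled FVB/N. Its log2 fold change came to -0.69 ± 0.18 (SE, limma adjusted p = 0.0898; 95% interval -1.10 to -0.27), and -0.67 in the authors' deposited table (adjusted p = 0.125). A scan day block gave -0.71, and days 2 and 3 alone gave -0.96 and -0.34.

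The sodium-coupled transporter Slc5a8 varied more between mice. Its single probe read -0.69, 0.21, -0.85 and -0.13 on the arrays labelled Mdr1a-/-, against 0.78, 0.19, 0.48 and 0.80 on those labelled FVB/N. Replicate 2 of the arrays labelled Mdr1a-/- was level with FVB/N replicate 2, and the other 3 lay below every array labelled FVB/N. Its log2 fold change came to -0.93 ± 0.26 (SE, limma adjusted p = 0.0996; 95% interval -1.50 to -0.35). Without Mdr1a-/- replicate 2 it was -1.12 and passed (limma adjusted p = 0.0469), and over all alternatives adjusted p ran between 0.0435 and 0.511. The authors' deposited table gives -0.90 (adjusted p = 0.0189).

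Whether Slc16a1 differed more than the other 2 uptake genes was tested within arrays, as the difference between the log2 ratios of 2 genes. Slc16a1 minus Bsg was -0.71 ± 0.32 (SD, n = 4) on the arrays labelled Mdr1a-/- and 0.04 ± 0.24 (SD, n = 4) on those labelled FVB/N. The groups differed by -0.75 and did not overlap (exact permutation test, two-sided, p = 0.0286, the smallest that 70 splits can give). Adjusted over the 3 differences tested it was 0.0857, so it did not pass, and when all probes of each gene were averaged the difference was -0.42 (adjusted exact permutation p = 0.129). Slc16a1 minus Slc5a8 differed by -0.51 between the groups (exact permutation p = 0.171, adjusted p = 0.257), with means of -0.34 ± 0.54 (SD, n = 4) on the arrays labelled Mdr1a-/- and 0.17 ± 0.24 (SD, n = 4) on those labelled FVB/N.

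**Figure D2:**
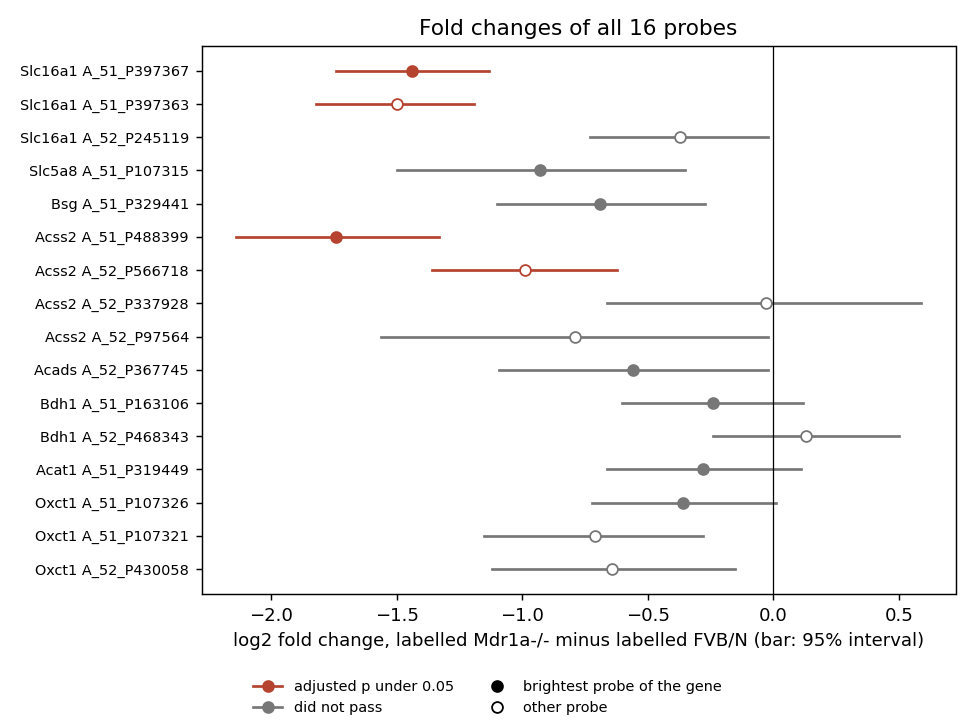
Log2 fold change (arrays labelled Mdr1a-/- minus arrays labelled FVB/N) of all 16 probes of the 8 genes, with 95% intervals from limma. Filled points are the brightest probe of a gene and red marks an adjusted p under 0.05. Slc16a1 and Acss2 each have 2 probes called lower, and the only probe above 0 is the second probe of Bdh1, at 0.13.

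Acss2, the acetate-activating enzyme, was 3.33-fold lower. Its brightest probe (A_51_P488399) read -0.86, -0.59, -0.37 and -1.05 on the arrays labelled Mdr1a-/- and 1.10, 0.78, 1.22 and 0.97 on those labelled FVB/N. The groups were fully apart, with a net Cy3 signal of 2307 to 2868 on the arrays labelled Mdr1a-/- and 8104 to 13120 on those labelled FVB/N. Its log2 fold change came to -1.74 ± 0.18 (SE, limma adjusted p = 0.00216; 95% interval -2.14 to -1.33), and -1.21 in the authors' deposited table (adjusted p = 0.000231). A scan day block gave -1.63 ± 0.20 (SE, limma adjusted p = 0.0207), and days 2 and 3 alone gave -1.89 and -1.24. All 8 fits without 1 array called it, with adjusted p up to 0.0107.

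The 3 other Acss2 probes gave smaller differences. A_52_P566718 read -0.48, -0.18, -0.38 and -0.58 on the arrays labelled Mdr1a-/-, against 0.55, 0.35, 0.90 and 0.53 on those labelled FVB/N, and fell by 0.99 ± 0.16 on the log2 scale (SE, limma adjusted p = 0.0137). That call was lost without Mdr1a-/- replicate 4 (limma adjusted p = 0.0548) and with scan day as a block (0.0814), over a range of 0.00469 to 0.315 in all alternatives. The remaining pair carries an older symbol in the files and was joined to Acss2 through probes that share that symbol. A_52_P337928 read 0.17 to 0.84 on the arrays labelled Mdr1a-/- and -0.15 to 1.17 on those labelled FVB/N, with a log2 fold change of -0.03 ± 0.28 (SE, limma adjusted p = 0.977). A_52_P97564 stood at -0.79 ± 0.34 (SE, limma adjusted p = 0.317) and was above background on 1 array labelled Mdr1a-/- and 3 labelled FVB/N, so its ratio is poorly measured.

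None of the enzymes of butyrate oxidation and ketone use among the 8 genes passed. Acads, the short-chain acyl-CoA dehydrogenase, read -0.31, -1.01, -0.84 and -0.70 on the arrays labelled Mdr1a-/- and -0.15, -0.10, 0.33 and -0.71 on those labelled FVB/N. FVB/N replicate 4 lay among the arrays labelled Mdr1a-/-, and the log2 fold change came to -0.56 ± 0.24 (SE, limma adjusted p = 0.312; 95% interval -1.09 to -0.02). The authors' deposited table gives Acads a smaller fall, -0.21 (adjusted p = 0.621). The thiolase Acat1 read -1.48, -1.32, -0.94 and -1.61 on the arrays labelled Mdr1a-/- and -1.0, -1.08, -1.22 and -0.95 on those labelled FVB/N. Its groups overlapped, at -0.28 ± 0.17 (SE, limma adjusted p = 0.521; 95% interval -0.66 to 0.11), and -0.16 in the authors' deposited table (adjusted p = 0.417).

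The 2 ketone enzymes had more than 1 probe each. Bdh1 read -0.84, -0.73, -0.86 and -0.77 by its brightest probe on the arrays labelled Mdr1a-/-, against -0.33, -0.94, -0.56 and -0.39 on those labelled FVB/N. FVB/N replicate 2 lay below all 4 arrays labelled Mdr1a-/-, and the log2 fold change came to -0.24 ± 0.16 (SE, limma adjusted p = 0.56; 95% interval -0.60 to 0.12). A dimmer Bdh1 probe (A_52_P468343) stood at 0.13 ± 0.16 (SE, limma adjusted p = 0.793), with FVB/N replicate 2 again the lowest array of its group. The 2 probes thus lay on either side of 0, and neither passed. In the authors' deposited table both lie above 0, at 0.04 and 0.10 (adjusted p = 0.922 and 0.546).

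For Oxct1 all 3 probes lay lower and none passed. Its brightest probe had a Cy5 reference near saturation on all 8 arrays, which limits its ratio, and gave -0.36 ± 0.16 (SE, limma adjusted p = 0.349). The probe A_51_P107321, with the reference near saturation on 1 array, read -1.35, -1.77, -0.90 and -1.21 on the arrays labelled Mdr1a-/- and -0.56, -0.62, -0.77 and -0.44 on those labelled FVB/N. These groups did not overlap, at -0.71 ± 0.19 (SE, limma adjusted p = 0.0932; 95% interval -1.15 to -0.28), and the probe passed without Mdr1a-/- replicate 3 (-0.85, limma adjusted p = 0.0411). The third probe read -1.59 to -0.61 on the arrays labelled Mdr1a-/- and -0.73 to -0.23 on those labelled FVB/N, a log2 fold change of -0.64 ± 0.21 (SE, limma adjusted p = 0.181). For the 3 probes the authors' deposited table gives smaller falls, -0.10, -0.29 and -0.22 (adjusted p = 0.607, 0.418 and 0.532). Bdh1 minus Oxct1 within arrays differed by 0.11 between the groups (exact permutation p = 0.743, adjusted p = 0.743), with means of -0.83 ± 0.26 on the arrays labelled Mdr1a-/- and -0.95 ± 0.40 on those labelled FVB/N (SD, n = 4 each). Without FVB/N replicate 2 this difference was -0.04. It used the brightest Oxct1 probe, whose ratio is limited. The net Cy3 of that probe was 55514 to 57211 on the arrays labelled FVB/N, also near the top of the scale. When all probes of each gene were averaged the difference was 0.51 (adjusted exact permutation p = 0.0857).

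Genes of the same route were taken as 8 lists, with 62 of 64 genes measured, each by its brightest probe. Over all 62, 3 rose, 5 fell and 54 did not pass (limma), beside 2.26% called higher and 2.17% called lower among the brightest probes of all named genes. Their median log2 fold change came to -0.01.

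Among 10 other monocarboxylate transporters and chaperones 3 rose and 0 fell, with a median of 0.43, the opposite direction to Slc16a1. That median rests in part on dim probes: Slc16a4, at 0.44, was above background on no array, and Slc5a12, at 0.22, on 2. Slc16a3 (MCT4), which exports lactate from glycolytic cells, read -1.02, -1.11, -1.42 and -0.36 on the arrays labelled Mdr1a-/- and -2.07, -2.05, -2.08 and -2.31 on those labelled FVB/N, and rose by 1.15 ± 0.22 (SE, limma adjusted p = 0.0243). Slc16a6, known as a ketone body exporter in zebrafish liver, read -0.28 to 0.39 on the arrays labelled Mdr1a-/- and -1.30 to -0.86 on those labelled FVB/N, and rose by 1.13 ± 0.18 (SE, limma adjusted p = 0.0119), while its second probe gave 0.73 ± 0.19 and did not pass (limma adjusted p = 0.0877). Emb (embigin), a relative of Bsg that chaperones monocarboxylate transporters, read 1.23, 1.08, 2.32 and 1.73 on the arrays labelled Mdr1a-/- and -0.58, -0.20, -0.86 and -0.82 on those labelled FVB/N. Emb was 4.62-fold higher (2.21 ± 0.28, SE, limma adjusted p = 0.00452), and a second Emb probe gave 1.87 ± 0.20 (SE, limma adjusted p = 0.00238). The third Emb probe, above background on 2 arrays, stood at -0.51 (limma adjusted p = 0.449). With scan day as a block only Emb of the 3 passed (2.26, limma adjusted p = 0.018), with Slc16a3 at 0.91 (0.0696) and Slc16a6 at 1.19 (0.0625). Slc16a3 was also lost in 5 of the 8 fits without 1 array, those without Mdr1a-/- replicate 1 or FVB/N replicate 1, 2, 3 or 4 (limma adjusted p up to 0.0799), over a range of 0.00995 to 0.275 in all alternatives.

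**Figure D3:**
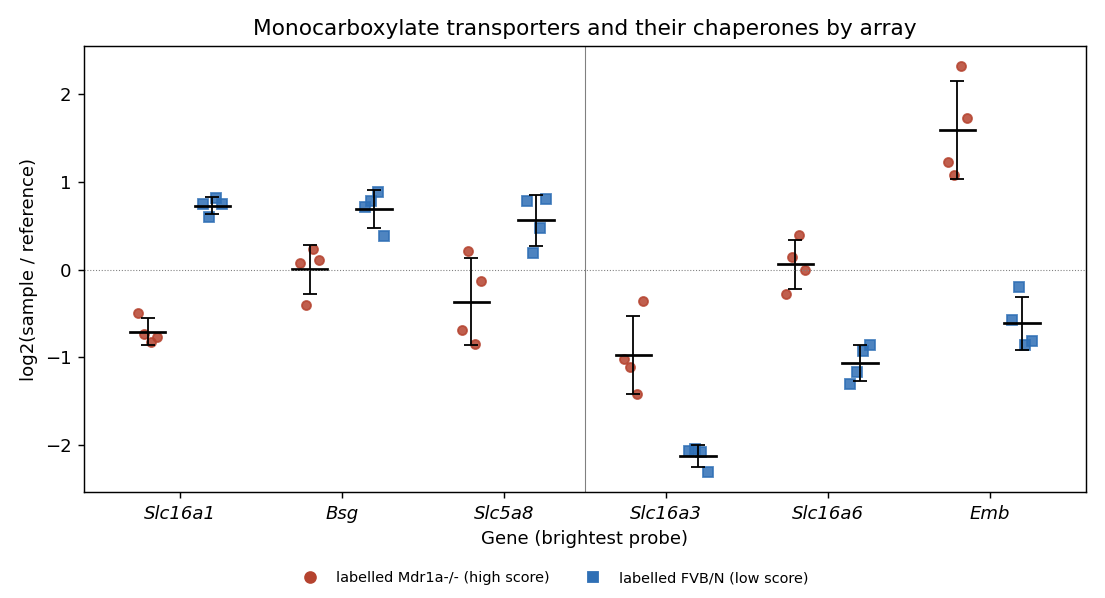
Log2(sample / reference) by array of the uptake genes Slc16a1, Bsg and Slc5a8 (left of the vertical line) and of the 3 called genes of the other monocarboxylate transporter list (right), by brightest probe. Circles are arrays labelled Mdr1a-/-, squares arrays labelled FVB/N, lines and bars the mean and SD of 4 arrays. Slc16a3, Slc16a6 and Emb lay higher on all 4 arrays labelled Mdr1a-/-, while Slc16a1 and Bsg lay lower on all 4.

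In the list of other steps of butyrate oxidation 3 of 10 genes fell and 0 rose, with a median of -0.35. The list also holds enzymes that act on longer fatty acids, such as Acadm, so its counts are not those of butyrate oxidation alone. The thiolase Acaa2 read -1.27, -1.49, -1.23 and -1.52 on the arrays labelled Mdr1a-/- and -0.08, -0.07, 0.07 and -0.31 on those labelled FVB/N, and fell by 1.28 ± 0.14 (SE, limma adjusted p = 0.00274). Its Cy5 reference was near saturation on all 8 arrays. The hydroxyacyl-CoA dehydrogenase Hadh fell by 0.86 ± 0.18 and the medium-chain dehydrogenase Acadm by 0.63 ± 0.14 (SE, limma adjusted p = 0.0354 and 0.0485). Acadm, also with a reference near saturation on 8 arrays, lost its call without any 1 array (adjusted p up to 0.156). Hadh passed when Mdr1a-/- replicate 2 was left out and in none of the other 7 such fits (adjusted p up to 0.104). With scan day as a block Acaa2 alone of the 3 passed (-1.24, limma adjusted p = 0.0323), and Hadh and Acadm stood at -0.74 and -0.59 (0.112 and 0.232).

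The list of metabolic transcription regulators had a median of -0.65, with 2 of 7 genes called. All 7 fold changes were below 0, beside 8862 of 19440 among the brightest probes of all named genes. Those of Ppard and Pparg were small, at -0.06 and -0.18 (limma adjusted p = 0.919 and 0.709). Ppara, the nuclear receptor that switches on fatty acid oxidation and ketogenesis, read -2.54, -2.52, -2.43 and -2.63 on the arrays labelled Mdr1a-/- and -1.22, -1.55, -1.0 and -1.27 on those labelled FVB/N. It was 2.41-fold lower (-1.27 ± 0.15, SE, limma adjusted p = 0.00342), and a scan day block gave -1.26 (limma adjusted p = 0.034). The authors' deposited table gives Ppara a smaller fall, -0.42 (adjusted p = 0.0314). Ppargc1a, the coactivator of mitochondrial biogenesis, fell by 1.45 ± 0.29 (SE, limma adjusted p = 0.0295), with a range of -1.57 to -0.14 on the arrays labelled Mdr1a-/- and 0.36 to 0.63 on those labelled FVB/N. Of the 8 fits without 1 array it passed in 1, where Mdr1a-/- replicate 3 was left out (the other 7 had adjusted p up to 0.0961), and it missed the threshold under a scan day block (-1.23, limma adjusted p = 0.112). The second Ppargc1a probe gave -0.64 ± 0.17 and did not pass (SE, limma adjusted p = 0.0842). Of Ppargc1b, a relative of Ppargc1a, the brightest probe did not pass (-0.65, limma adjusted p = 0.0646), and 2 dimmer ones did, at -1.04 and -0.80 (0.0471 and 0.0446). Neither stayed called in any fit without 1 array (adjusted p up to 0.122) or with scan day as a block (0.124 and 0.144).

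The other 5 lists had no gene called by limma on its brightest probe. Counts at an unadjusted p in these lists stand beside 10.1% higher and 8.79% lower among the brightest probes of all named genes. Of 6 other ketone body enzymes 0 also passed at an unadjusted p under 0.05, with a median of 0.08. Of 3 measured short-chain fatty acid receptors 2 were higher at an unadjusted p under 0.05, Ffar2 at 0.75 ± 0.25 and Hcar2, which senses 3-hydroxybutyrate and butyrate, at 1.37 ± 0.50 (SE, limma adjusted p = 0.172 and 0.224). Hcar2 was dim, above background on 4 arrays labelled Mdr1a-/- and 2 labelled FVB/N. Within day 2 Ffar2 and Hcar2 stood at 0.82 and 1.43, but within day 3 at 0.05 and 0.06. A scan day block gave 0.51 and 0.88 (limma adjusted p = 0.426 and 0.441). The median of the receptor list was 0.75. Ffar2, a receptor for acetate, propionate and butyrate, passed without Mdr1a-/- replicate 3 (0.99, limma adjusted p = 0.0269). Of 7 other acyl-CoA synthetases 1 was lower unadjusted, Acsm3 at -1.08 ± 0.27 (SE, limma adjusted p = 0.0759), with its reference near saturation on 6 arrays, which passed without Mdr1a-/- replicate 3 (-1.26, limma adjusted p = 0.0384). This list, which holds medium-chain synthetases known to activate butyrate, had a median of 0.03. That value rests in part on poorly measured probes. Acsm4 was above background on 1 array and Acsm5 on 2, and the reference of Acsm2 was near saturation on 7.

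Of 11 genes of lactate and pyruvate handling 2 were higher (Pdk3 and Ldhd) and 2 lower (Ldhb and Mpc2) at an unadjusted p under 0.05, with a median of 0.07. Ldha, the lactate dehydrogenase subunit that predominates in glycolytic tissue, stood at 0.07 by its brightest probe, whose net Cy3 was 52138 to 55665 on the arrays labelled Mdr1a-/- and 53824 to 55895 on those labelled FVB/N, with the reference near saturation on 6 arrays. Its dimmer probe, with the reference near saturation on 4 arrays, was called lower at -0.89 ± 0.19 (SE, limma adjusted p = 0.0368). It missed the threshold under a scan day block (-1.02, limma adjusted p = 0.0873) and in 6 of the 8 fits without 1 array (adjusted p up to 0.107). Pdk3, a kinase that inhibits pyruvate dehydrogenase, stood at 0.78 ± 0.19 (SE, limma adjusted p = 0.07) and passed without Mdr1a-/- replicate 2 (0.92, limma adjusted p = 0.0336), while its second probe gave 0.27 ± 0.19 (SE, limma adjusted p = 0.594). Of 8 genes of cytosolic acetyl-CoA and lipid synthesis, 3 were lower unadjusted (Acly, Fasn and Srebf1), with a median of -0.06. Fasn, the fatty acid synthase, read -0.98 to -0.47 on the arrays labelled Mdr1a-/- and -0.10 to 0.61 on those labelled FVB/N, a log2 fold change of -0.82 ± 0.19 (SE, limma adjusted p = 0.0571), with its reference near saturation on 6 arrays. A second Fasn probe gave -0.26 ± 0.19 (SE, limma adjusted p = 0.602).

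**Figure D4:**
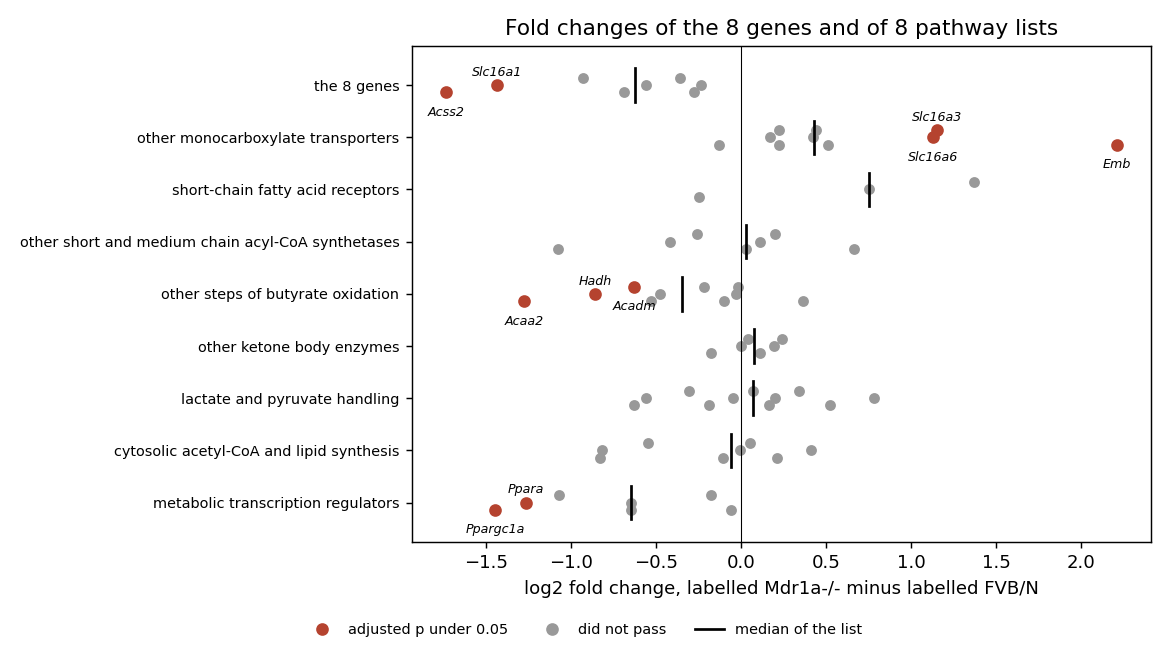
Log2 fold changes (arrays labelled Mdr1a-/- minus arrays labelled FVB/N) of the brightest probe of each gene, for the 8 genes and for 8 pathway lists. Red points passed an adjusted p under 0.05 and are named, and black lines are list medians. The called genes of the butyrate oxidation list and of the regulator list lie below 0, with Slc16a1 and Acss2. Those of the other monocarboxylate transporters lie above 0.

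Genes with the profile nearest to Slc16a1 and Acss2 were found over the 8 arrays, as the smallest root mean square difference after centring each probe, among 14125 candidates. For Slc16a1 they were Ugdh, Ppp1r14a and Ppara, at 0.14, 0.15 and 0.16 on the log2 scale. For Acss2 they were Tesk2, Sipa1l3 and Dio1, at 0.17, 0.18 and 0.18. Ppara, the nuclear receptor described above, is the one of these 6 genes that the pathway lists also hold. All 6 were called lower, at -1.72 to -1.27. Any probe with a similar fold change and little spread within groups lies near by this measure. Nearness therefore shows no link beyond the shared group difference.

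Markers of some cell types also differed between the groups. In whole colon, fewer cells of a type and less RNA per cell cannot be told apart. Marker counts stand beside 2.26% called higher and 2.17% called lower among the brightest probes of all named genes. At an unadjusted p under 0.05 these shares were 10.1% and 8.79%. Of 10 absorptive colonocyte markers 3 fell (Car4, Slc26a3 and Cyp2c55) and 0 rose. With scan day as a block Slc26a3 passed (limma adjusted p = 0.0174) and Car4 and Cyp2c55 did not (0.0741 and 0.0948). Car4 also lost its call without Mdr1a-/- replicate 1 or FVB/N replicate 2, 3 or 4 (limma adjusted p up to 0.0753). At an unadjusted p under 0.05, 5 were lower and 2 higher, Car1 at 0.83 ± 0.22 and Slc51b at 1.18 ± 0.27 (SE, limma adjusted p = 0.0825 and 0.0524). Their mean level was -1.20 to -0.71 on the arrays labelled Mdr1a-/- and -0.52 to -0.22 on those labelled FVB/N. Of 10 markers of all epithelium 0 were called by limma (4 lower unadjusted: Epcam, Cdh1, Vil1 and Cdx1), with means of 0.17 to 0.35 on the arrays labelled Mdr1a-/- and 0.22 to 0.72 on those labelled FVB/N. For 5 of these 10 (Krt8, Krt18, Krt19, Cldn7 and Lgals4) the median net signal over the 8 arrays was above 50000 in both channels, near the top of the scale, which limits what their ratios can show. All 20 of these markers were above background on all 8 arrays, so colon epithelium was detected in the tissue labelled colon. Of 13 leukocyte markers 5 rose (Ptprc, Itgb2, Laptm5, Lcp1 and Coro1a) and 0 fell, with means of 0.87 to 1.43 on the arrays labelled Mdr1a-/- and -0.05 to 0.49 on those labelled FVB/N. With scan day as a block 0 of the 13 were called (limma adjusted p = 0.0565 for Ptprc and 0.0882 to 0.17 for the other 4). Without Mdr1a-/- replicate 4 Ptprc alone passed. Laptm5 was also lost without FVB/N replicate 1 or 4, Lcp1 without FVB/N replicate 3, and Coro1a in every fit but the one without Mdr1a-/- replicate 3. The part of these cells in the lower Slc16a1 and Acss2 and the higher Slc16a3 and Emb was not tested.

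Of 8 adipocyte markers, 8 smooth muscle markers and 9 pancreatic acinar markers, 0 were called by limma, while 3 (Adipoq, Cidec and Lep), 2 (Acta2 and Myh11) and 5 (Cpa1, Cpb1, Pnlip and Clps among them) were lower at an unadjusted p under 0.05. The adipocyte mean was -0.57 to -0.05 on the arrays labelled Mdr1a-/- and 0.59, 1.65, 1.23 and -0.88 on FVB/N replicates 1 to 4. On that last array, low in adipocyte markers, Slc16a1 read 0.75 and Acss2 0.97, inside the range of the other 3. The pancreatic mean was 1.21 on Mdr1a-/- replicate 1 and -1.65 to -0.80 on the other arrays labelled Mdr1a-/-, against 0.24 to 1.93 on those labelled FVB/N. On Mdr1a-/- replicate 1 Slc16a1 read -0.49, the highest of its group, and Acss2 -0.86. Smooth muscle means were -0.82 to 0.01 on the arrays labelled Mdr1a-/- and -0.34 to 0.33 on those labelled FVB/N. The readings of Slc16a1 and Acss2 given here are of single arrays. The part of these tissues in their lower levels was not tested.

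**Figure D5:**
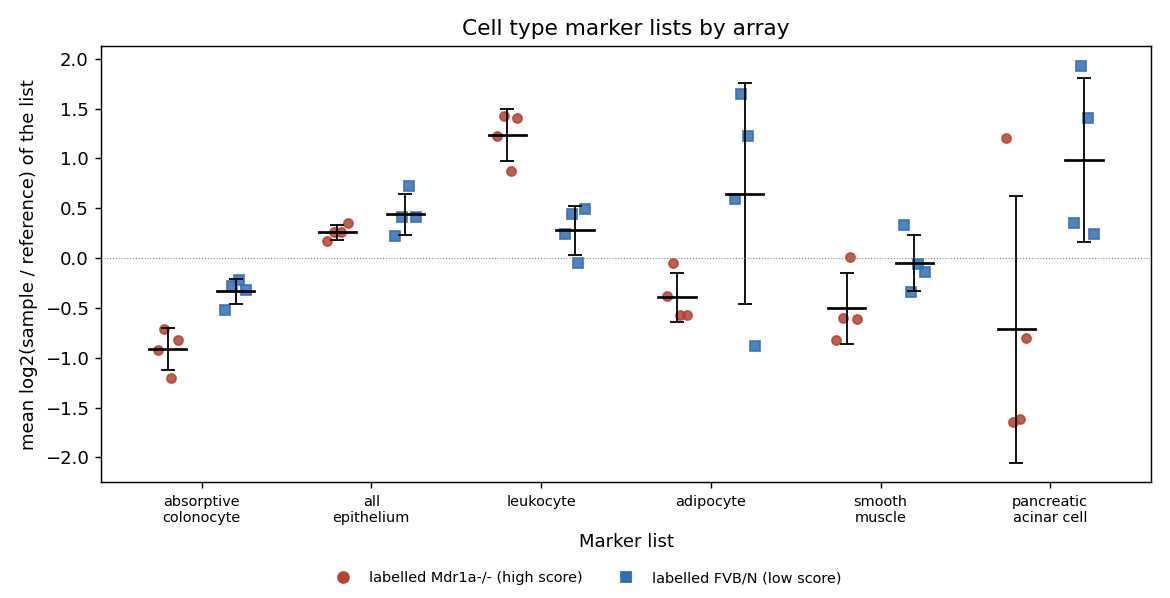
Mean log2(sample / reference) of 6 marker lists on each array, with circles for arrays labelled Mdr1a-/- on the left and squares for those labelled FVB/N on the right of each list, and the mean and SD of 4 arrays. The groups are apart for absorptive colonocyte markers (lower on arrays labelled Mdr1a-/-) and leukocyte markers (higher), and overlap for the other 4 lists.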

How the data were processed

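Colon RNA of 8 mice was measured on 8 arrays. Per the file headers, the deposited array files hold a mean signal intensity and a mean background intensity per spot and channel, with a normalized log2 ratio. Plain background subtraction with loess, Cy5 over Cy3, matched that deposited log2 column within 1e-06 at every spot with a deposited value (312 to 536 spots per array had none). It is thus reference over sample, although its description says the reverse, and its sign was turned. A further deposited table holds the authors' fold changes, with a t score per probe and raw and adjusted p-values. Its description calls the fold changes log10. They were read as log2, because they had a slope of 0.87 on log2 fold changes computed without background subtraction. The correlation was 0.818, so single probes can differ between the 2. The submitters' processing notes name limma, without a version. No image program or genome build of the arrays is named in the sources used here.

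The analysis here used limma 3.58.1 under R 4.3.3 on the intensities: normexp with an offset of 50, loess with control spots at weight 0, averaging of spots per probe, lmFit and eBayes without covariates, two-sided, Benjamini-Hochberg over 41174 probes. Above background means a net Cy3 signal over the 95th percentile of 314 negative spots, and near saturation an intensity of 60000 or more. Medians of foreground over background in Cy3 were 2.55 to 3.41, and 4 arrays per group limit the precision. In data simulated with this spread, 31 of 100 probes with a log2 change of 1 and 82 of 100 with a change of 2 were recovered among 41174, with 6 false calls.

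Probes were named through RefSeq accessions (22072), current symbols (6280) and older symbols (4211, and 21 settled through accession-named probes), and 8590 have no RefSeq gene. Of a gene's probes the brightest by mean intensity stands for it in lists. The 8 genes, the pathway lists and the marker lists were chosen with earlier results of these data known. Named are all member probes, the called genes and the smallest p of each pathway list, called markers, and the 3 nearest profiles to each called member. Hcar2, Ldha, Ppargc1b, Ppard, Pparg and the epithelial markers of high signal were named after their values were seen. So were genes given only by an unadjusted p and those named as limits of a list. Some genes that this rule names are not reported here. Same-numbered replicates of the 2 groups correlated at -0.0349 to 0.111 in their deviations from the group means, so the numbers were not taken as pairs. Alternatives tried were a scan day block, other background, normalization, weight, filter and threshold settings, and leaving out each array. Each slide held 1 array, so slide was not a batch that could be tested.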

Additional observations from a re-analysis of the deposited data

Results flagged for a closer look

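In 4 of the 70 groups of 4 arrays tested, 1 array lay far from the other 3, at a gap of 0.829 or more of the group's range. Chance gives about 1 in 20, so a count of this size is near that of chance. For the second Bdh1 probe (A_52_P468343) the array labelled Mdr1a-/- replicate 3 read -0.36 and the other 3 -0.74 to -0.72, a gap of 0.944 of the range. On the same probe the array labelled FVB/N replicate 2 read -1.10 and the others -0.68 to -0.63 (0.893). For Slc16a3 the array labelled FVB/N replicate 4 read -2.31 and the others -2.08 to -2.05 (0.872). For Acsm3 the array labelled FVB/N replicate 3 read -1.78 and the others -1.27 to -1.16 (0.829). All of these arrays stayed in the values given above.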

How the results depend on the processing

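Slc16a1 and Acss2 were called lower in 20 of 21 alternatives each, by brightest probe or, in 1 alternative, by the mean over all probes of the gene. Log2 fold changes were -1.65 to -1.10 and -1.96 to -0.89. The values nearest 0, -1.10 and -0.89, are those of the mean over all probes and not of the brightest probe. The exception was scan day 2 alone (2 arrays against 2), where 0 probes were higher, 0 lower, and 0 of the 16 member probes and 0 of the pathway genes were called. Of the 598 probes lower and 628 higher, array weights gave 939 and 1081, adjusted p under 0.1 gave 1036 and 1120, and scan day as a block 115 and 133. Leaving out 1 array gave 247 to 675 lower and 250 to 783 higher. With the Cy3 channel alone 35.2% of the calls were higher, against 51.2%. Of the 16 member probes, 7 were lower at adjusted p under 0.1, against 4. For pathway genes, 5 lower became 13 without background subtraction and at adjusted p under 0.1, 9 with dim probes left out, 10 with array weights, 3 with median centring and 2 with scan day as a block. They were 2 to 4 with 1 array left out: 2 without Mdr1a-/- replicate 1 or 4 or FVB/N replicate 1, 3 or 4, and 3 without Mdr1a-/- replicate 2. Pathway genes higher, 3, became 5 without background subtraction and at adjusted p under 0.1, and 1 with scan day as a block, and were 2 to 4 with 1 array left out. Member probes lower were 3 to 5 with 1 array left out. Signs turned for Acss2 A_52_P337928 without Mdr1a-/- replicate 1 (0.06) or 3 (0.03) or FVB/N replicate 3 (0.20) or 4 (0.02), in a range of -0.24 to 0.20 with 1 array left out, for Bdh1 A_52_P468343 in the Cy3 channel alone (-0.04) and within scan day 2 (-0.09), and for Bdh1 minus Oxct1 without FVB/N replicate 2 (-0.04 in a range of -0.04 to 0.23). The cause was not tested. Array weights, variance and dim-probe settings were not run for the within-array differences. With the replicate number as a block, 286 probes were lower and 310 higher, 3 member probes and 2 pathway genes were lower, and Slc16a1 and Acss2 stayed called (limma adjusted p = 0.0229 and 0.0221). Samples of the 2 groups share a number only, so this is not a pairing of mice. Dim probes limit A_52_P97564 of Acss2, and a bright reference limits Oxct1, Acaa2 and Acadm.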
